A study of Mus musculus with 27 samples.

Results

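The genes described are 10 genes of cytokine signaling, Jak1, Jak2 and Jak3 (JAK kinases), Stat3, Stat4, Stat5a and Stat5b (STAT transcription factors) and Socs1, Socs3 and Cish (feedback inhibitors). They were taken by symbol from tables of 35275 genes, in which each symbol matched 1 gene, and all 10 were above the limit on low reads in every comparison. The cytokine receptors that signal through JAK kinases carry no kinase of their own. A bound cytokine brings receptor-associated JAK kinases together, the kinases phosphorylate STAT proteins, and paired STAT proteins enter the nucleus and bind DNA at sites that include the gamma-activated sequence (GAS). Among the genes they switch on are the SOCS genes and Cish, whose products bind receptors or JAK kinases and dampen the same signal. In CD8 T cells this route carries the signals of IL-2, IL-7 and IL-15, which maintain survival and proliferation, and those of IL-12, IL-21 and IL-6.

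RNA was sequenced from P14+ T cells, which carry a transgenic T cell receptor for a peptide of lymphocytic choriomeningitis virus and were bred without Rag2, so that the mice make no other T or B cells. Cells were WT, lin28Tg (Lin28bTg in the labels) or let-7Tg. In lin28Tg mice a Lin28b transgene stops let-7 precursors from becoming mature miRNAs. The let-7g transgene of let-7Tg mice sits in the Col1a1 locus and is switched on by doxycycline. Each genotype was sampled as naive cells, after 12 h with antibodies to CD3 at 2 μg/ml and CD28 at 5 μg/ml, and as cytotoxic T lymphocytes (CTLs) on day 5, made with irradiated splenocytes and anti-CD3 at 2 μg/ml and given IL-2 at 100 U/ml from 48 h on. Doxycycline was in the culture medium at 2 μg/ml in all 3 genotypes at 12 h and on day 5, and the study's mice, controls included, drank it beforehand. Mice of both sexes, 6 to 10 weeks old, were used, and each of the 9 groups has 3 biological replicates. Whether these came from separate mice is not given in the sources used here, so p-values measure the spread between these libraries. Levels are FPKM, fragment counts divided by gene length and by the library's total count, so they can be compared between genes per length. Libraries held 13862679 to 23590836 counted reads, and the fewest reads behind any value of the 10 genes were 45, for Cish in a naive library.

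Lin28b was at 9.94 to 67.9 FPKM in the 9 lin28Tg libraries and at most at 0.059 in the others. Markers of CD8 T cells (6 genes) summed to 740 to 3375 FPKM in the 27 libraries, and markers of B cells (5 genes) to 33 at most. B cell markers in naive cells summed to 28.8 to 33 FPKM in lin28Tg, 18.8 to 21.4 in WT and 14.3 to 21.1 in let-7Tg. Of the 5, 2 were above the limit on low reads. Cd79b was called higher in lin28Tg against both genotypes, in naive cells and at 12 h. Markers of other cells also moved with the genotype. In naive cells the 7 myeloid markers summed to 186 to 984 FPKM in lin28Tg, 42.5 to 78.3 in WT and 29.1 to 77 in let-7Tg, and the 5 erythroid markers to 494 to 1994, 153 to 292 and 1.88 to 38.6. Also in naive cells, the 4 dendritic cell markers summed to 34.7 to 78.9 FPKM in lin28Tg, 10.5 to 25.2 in WT and 9.2 to 20.6 in let-7Tg, and the 3 NK markers to 23.8 to 74.6, 9.25 to 21.8 and 9.08 to 18.6, each marker of both lists being called higher in lin28Tg against both genotypes. The 3 CD4 T cell markers summed to 21.9 to 81.3, 6.93 to 15.9 and 6.14 to 10.5 in naive cells. They did not move together, since 2 were called higher and 1 lower in lin28Tg, against WT and against let-7Tg alike. At 12 h the myeloid sums were 11.8 to 23, 4.97 to 12.8 and 4.7 to 10.9, and the erythroid sums 83.3 to 693, 26.1 to 103 and 0.774 to 4.34. Of the 5 erythroid markers, 0 were called in lin28Tg against WT at 12 h, where the sums overlapped. Against let-7Tg 4 were called higher in lin28Tg, and 3 were called lower in let-7Tg than in WT. On day 5 the myeloid sums were 25.6 to 103, 2.41 to 7.63 and 1.43 to 2.01, with C1qa listed at 0 in all 9 libraries. Of the 7 myeloid markers only 2, Itgam and Fcer1g, were above the limit on low reads on day 5. Both were called higher in lin28Tg against WT and against let-7Tg, so these sums do not rest on the whole list. Also on day 5, the NK markers summed to 63.5 to 161, 10.6 to 43.6 and 3.01 to 6.15, and the erythroid sums were at most 1.84. Of the 3 NK markers, 2 were above the limit on low reads on day 5. Klrb1c was called higher in lin28Tg against both genotypes, and Klre1 against let-7Tg only. The part of these cells in the differences below was not tested. In bulk RNA, fewer cells of a type and less RNA per cell cannot be told apart.

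Differences were tested with limma across all tested genes, on log2(scaled FPKM + 0.5), and a gene was called where the p adjusted by the Benjamini-Hochberg method was under 0.05. The 10 genes differed between lin28Tg and let-7Tg cells in the largest number at 12 h. Of the 10, 8 were called in lin28Tg against let-7Tg cells at 12 h, all 8 higher in lin28Tg, against 30.8% of all tested genes called and 16.3% called and higher in lin28Tg. The median log2 difference of the 10 genes was 0.88, and that of all tested genes -0.02. In naive cells 5 of 10 were called in the same comparison, 4 higher and 1 lower, against 44.2% of all genes. On day 5, 2 were called, 1 in each direction, against 21.6%, and 4 with the replicate number as a block, since same-numbered libraries deviated together on day 5.

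Against WT, lin28Tg cells had 4 of the 10 genes called in naive cells (background 34.9%), 3 at 12 h (8.48%) and 0 on day 5 (4.34%). let-7Tg cells had 0 called in naive cells (0.934%), 3 at 12 h (3.24%) and 0 on day 5 (0.929%). For the limma counts of 0, 1 gene was under an unadjusted p of 0.05 in naive let-7Tg against WT, 1 in lin28Tg against WT on day 5 and 0 in let-7Tg against WT on day 5, and limma voom on the reads recovered from FPKM called 0 in each. The comparison of lin28Tg and WT on day 5 gave 2 calls with the replicate block. The count of 3 in let-7Tg against WT at 12 h depended on single libraries. It was 0 without WT library 1 or 3 or let-7Tg library 2 or 3, 1 without WT library 2, 4 without let-7Tg library 1, and 1 with the replicate block. The 3 comparisons of a stage share their libraries, so they are not independent of each other.

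**Figure D1:**
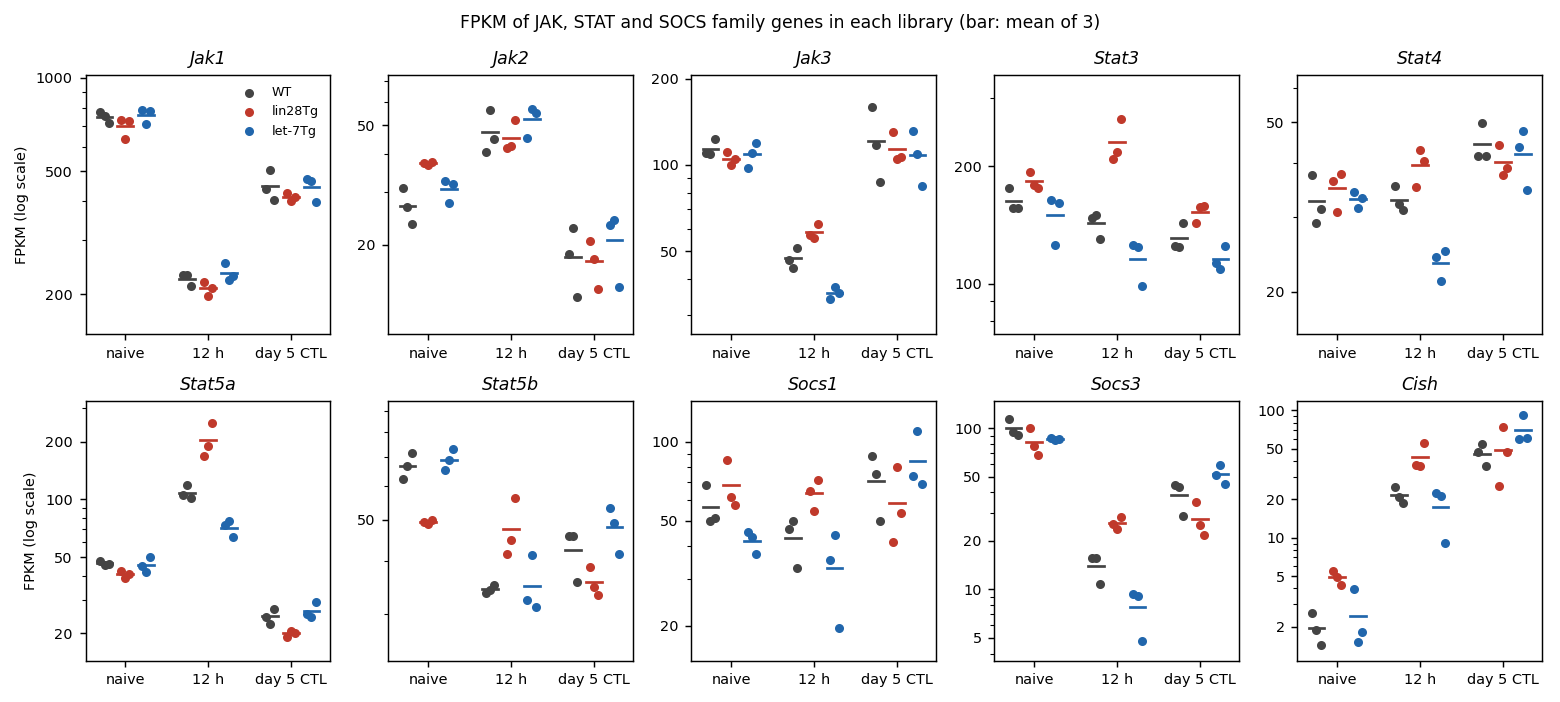
FPKM (log scale) of each of the 10 genes in each of the 27 libraries, with naive, 12 h and day 5 CTL libraries from left to right in each panel. Points are libraries, bars are means of 3 libraries, and grey, red and blue mark WT, lin28Tg and let-7Tg. Stat5a at 12 h lies between 169 and 251 in lin28Tg, 102 and 119 in WT and 63.9 and 76.7 in let-7Tg, with no overlap.

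The 3 JAK kinases followed different courses from naive to activated cells. Jak1, which serves the receptors of most cytokine families including those of IL-2, IL-6 and the interferons, was the most abundant of the 10 genes in each group except lin28Tg at 12 h. In WT cells it was at 774, 753 and 712 FPKM in naive libraries, at 231, 231 and 213 at 12 h, and at 439, 504 and 403 on day 5. The stages did not overlap, and the 12 h libraries were the lowest. Jak1 fell by 1.48 on the log2 scale from naive to 12 h (SE 0.08, adjusted p = 7.9e-13) and rose by 0.83 from 12 h to day 5 (SE 0.08, adjusted p = 1.3e-08). The changes were -1.49 and 0.92 in lin28Tg and -1.46 and 0.78 in let-7Tg cells, each called. Jak1 was not called in any of the 9 genotype comparisons, where its log2 differences lay between -0.16 and 0.04, with none under an unadjusted p of 0.05 and 0 called with voom. In the order of its 9 group means the 3 stages were separate, and neighbours within a stage overlapped.

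Jak3, the kinase bound to the common gamma chain of the IL-2, IL-7 and IL-15 receptors, was called in the same directions as Jak1 between stages and also differed between genotypes at 12 h. In WT cells it was at 110, 109 and 123 FPKM when naive, at 46.8, 43.9 and 51.3 at 12 h, and at 159, 117 and 87.4 on day 5. At 12 h it was at 57.1, 55.7 and 62.4 in lin28Tg and at 34.2, 37.4 and 35.8 in let-7Tg cells. All 9 libraries lay in the order lin28Tg, WT, let-7Tg with no overlap. The log2 difference of lin28Tg and let-7Tg at 12 h was 0.71 (SE 0.08, adjusted p = 0.0003). Against WT, lin28Tg differed by 0.29 (SE 0.08, adjusted p = 0.0574), which missed the threshold, and let-7Tg by -0.42 (SE 0.08, adjusted p = 0.0316). The last call held with the replicate block (adjusted p = 0.0348) but was lost without WT library 1 or 3 or let-7Tg library 2 or 3, with adjusted p between 0.0584 and 0.119. From naive to 12 h, Jak3 fell by 1.01 in WT, 0.60 in lin28Tg and 1.36 in let-7Tg cells, and from 12 h to day 5 it rose by 1.15, 0.89 and 1.43, all called. Naive and day 5 libraries overlapped across genotypes.

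Jak2, which serves the receptors of interferon gamma, IL-12 and the IL-6 family, took the opposite course. In WT cells it was at 30.9, 26.8 and 23.4 FPKM when naive, at 40.7, 56.4 and 45 at 12 h, and at 18.6, 22.7 and 13.4 on day 5. It rose by 1.04 from naive to 12 h (SE 0.18, adjusted p = 1.5e-05) and fell by 1.53 from 12 h to day 5 (SE 0.18, adjusted p = 8.7e-08). The rise was 0.99 in let-7Tg and 0.51 in lin28Tg cells. The smaller of these (adjusted p = 0.0122) was lost without scaling between libraries (0.27, adjusted p = 0.192) and without lin28Tg library 3 of 12 h (adjusted p = 0.0657). The falls to day 5 were 1.42 in lin28Tg and 1.48 in let-7Tg cells. Naive lin28Tg libraries were at 37.4, 37 and 37.7 FPKM, above all naive WT and let-7Tg libraries. Jak2 was higher there by 0.41 against WT (SE 0.10, adjusted p = 0.00957). Against let-7Tg, at 32.6, 27.5 and 31.9 FPKM, it was higher by 0.28 (SE 0.10, adjusted p = 0.0378), a call that was lost without any 1 lin28Tg library or let-7Tg library 2 or 3 (adjusted p of 0.0668 to 0.117).

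Of the STAT genes, Stat5a changed the most. STAT5A and STAT5B are close relatives that carry the signals of IL-2, IL-7 and IL-15. Naive cells had 47.8, 45.3 and 45.9 FPKM of Stat5a in WT, 42.5, 38.8 and 40.9 in lin28Tg and 44.7, 41.6 and 50.3 in let-7Tg. At 12 h the values were 105, 119 and 102 in WT, 169, 190 and 251 in lin28Tg and 73.3, 76.7 and 63.9 in let-7Tg cells, all above the naive libraries. On day 5 they were 24.3, 22.5 and 26.8 in WT, 19.2, 20.7 and 20.2 in lin28Tg and 25.1, 24.4 and 29.1 in let-7Tg cells, all below the naive libraries. The group with the highest mean, lin28Tg at 12 h (203 ± 42.4 FPKM, SD, n = 3), was 10.2 times the lowest, lin28Tg on day 5 (20 ± 0.765). Of the 8 pairs of neighbours in the order of the 9 means, 3 overlapped, 2 of them among naive groups and 1 between let-7Tg and WT on day 5.

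Stat5a was 2.83-fold higher in lin28Tg than in let-7Tg cells at 12 h (log2 difference 1.5, SE 0.13, adjusted p = 7.4e-05). It was 1.83-fold higher in lin28Tg than in WT cells (0.87, SE 0.13, adjusted p = 0.00438). Both calls held without each library in turn. The log2 difference of let-7Tg and WT was -0.63 (SE 0.13, adjusted p = 0.0424). That call was lost with the replicate block (adjusted p = 0.0565) and without any WT library or let-7Tg library 2 or 3 (adjusted p of 0.0759 to 0.126). In naive cells Stat5a was lower in lin28Tg than in WT by a log2 difference of -0.24 (SE 0.07, adjusted p = 0.0281). This call was lost without scaling (adjusted p = 0.0897), without any WT library and without lin28Tg library 2 or 3 (adjusted p of 0.0648 to 0.105). From naive to 12 h, Stat5a rose by 1.47 in WT, 2.53 in lin28Tg and 0.87 in let-7Tg cells. Day 5 cells then had less of it, with log2 differences to 12 h of -2.28, -3.36 and -1.56 (adjusted p of 1e-13, 3.7e-16 and 5e-11). On day 5 the lin28Tg libraries lay below the let-7Tg libraries, with a log2 difference of -0.27 (adjusted p = 0.139) that was called with the replicate block (adjusted p = 0.0497).

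Stat5b had another course. Naive libraries were at 62.3, 66.9 and 71.5 FPKM in WT, 49.3, 48.9 and 49.8 in lin28Tg and 65.2, 68.9 and 73 in let-7Tg, so that every lin28Tg library was below the rest. The log2 difference of naive lin28Tg cells was -0.49 against WT (SE 0.07, adjusted p = 0.00113) and -0.49 against let-7Tg (SE 0.07, adjusted p = 0.00067). At 12 h the values were 33.6, 34.1 and 35.2 in WT, 41.4, 44.8 and 56.3 in lin28Tg and 32.4, 41.2 and 31.1 in let-7Tg cells, and the sign was the opposite. Stat5b was higher in lin28Tg than in let-7Tg by 0.45 (SE 0.12, adjusted p = 0.0188), a call lost without library 3 of either group (adjusted p of 0.0535 and 0.0522). Against WT the difference was 0.43 (adjusted p = 0.0525). Between naive cells and 12 h Stat5b fell by 0.70 in WT and by 0.75 in let-7Tg cells (adjusted p of 3.8e-06 and 1.5e-06), while lin28Tg cells differed by 0.17 (adjusted p = 0.149). Between 12 h and day 5 it fell by 0.46 in lin28Tg (adjusted p = 0.00062) and rose by 0.32 in let-7Tg cells (adjusted p = 0.0108). The rise was lost with only the 6 libraries compared (adjusted p = 0.0578) and without let-7Tg library 3 of 12 h or library 1 of day 5 (adjusted p of 0.0511 and 0.0667). On day 5 lin28Tg libraries were at 38.8, 34.7 and 33.2 FPKM and let-7Tg libraries at 53.3, 49 and 41.5, with a log2 difference of -0.31 (adjusted p = 0.086; 0.0111 with the replicate block).

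The FPKM of Stat5a divided by that of Stat5b turned over with activation. In naive cells the ratio was 0.768, 0.676 and 0.641 in WT, 0.864, 0.793 and 0.821 in lin28Tg and 0.685, 0.605 and 0.689 in let-7Tg. At 12 h it was 3.11, 3.48 and 2.9 in WT, 4.09, 4.24 and 4.46 in lin28Tg and 2.26, 1.86 and 2.06 in let-7Tg cells, with no overlap of the genotypes. On day 5 it was between 0.472 and 0.751 in all 9 libraries. No test was made of the ratio. In windows of 50 bases, 17.1% of the Stat5a transcript and 11.8% of the Stat5b transcript read the same in both (608 windows). A read that lies wholly within such a stretch cannot be assigned by its own sequence alone. The length of the reads and their pairing were not used here.

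**Figure D2:**
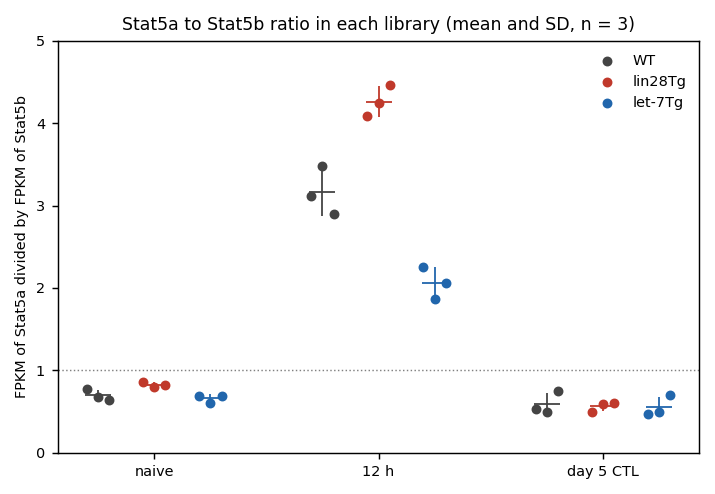
FPKM of Stat5a divided by FPKM of Stat5b (linear axis from 0) in each library, grouped by stage. Points are libraries, horizontal ticks are means and vertical bars SD over 3 libraries, and the dotted line marks equal FPKM. The 9 libraries of 12 h lie between 1.86 and 4.46 and the naive and day 5 libraries below 1.

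Stat3 and Stat4 differed between lin28Tg and let-7Tg cells at 12 h by smaller factors than Stat5a and larger ones than Stat5b. STAT3 carries the signals of the IL-6 family, IL-10 and IL-21. Stat3 was at 209, 218 and 265 FPKM in lin28Tg, 147, 150 and 130 in WT and 126, 124 and 98.7 in let-7Tg cells at 12 h, in this order with no overlap. It was 1.99-fold higher in lin28Tg than in let-7Tg cells (log2 difference 1.00, SE 0.11, adjusted p = 0.0003) and 1.59-fold higher than in WT (0.67, SE 0.11, adjusted p = 0.00673). The difference of let-7Tg and WT was -0.33 (SE 0.11, adjusted p = 0.132) and was not called. Stat3 was the gene called in lin28Tg against let-7Tg at all 3 stages with the same sign. In naive cells the libraries were at 193, 179 and 176 in lin28Tg and 164, 126 and 161 in let-7Tg (0.28, SE 0.10, adjusted p = 0.0377), a call lost without lin28Tg library 1 or 2 or let-7Tg library 2 (adjusted p of 0.0611 to 0.101). On day 5 they were at 143, 157 and 158 against 113, 109 and 125 (0.51, SE 0.10, adjusted p = 0.00846), with WT at 125, 124 and 143. Against WT on day 5, lin28Tg differed by 0.28 (adjusted p = 0.177), which was called with the replicate block (adjusted p = 0.0407). From naive to 12 h Stat3 rose in lin28Tg cells by 0.57 (adjusted p = 7.2e-05) and was not called in WT or let-7Tg. From 12 h to day 5 it fell by 0.65 in lin28Tg cells (adjusted p = 2.1e-05). In WT cells the 2 stages overlapped and the log2 difference of -0.28 (adjusted p = 0.0277) was -0.13 without scaling (adjusted p = 0.321) and lost its call without WT library 1 or 2 of either stage (adjusted p of 0.0705 to 0.101).

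Stat4, which carries the IL-12 signal and supports interferon gamma production, was at 35.2, 43.1 and 40.5 FPKM in lin28Tg, 35.5, 32.1 and 31.1 in WT and 24.1, 21.2 and 24.9 in let-7Tg cells at 12 h. The let-7Tg libraries of 12 h were the lowest of all 27. The log2 difference of lin28Tg and let-7Tg was 0.76 (SE 0.11, adjusted p = 0.00134). That of lin28Tg and WT, whose libraries overlapped, was 0.24 (SE 0.11, adjusted p = 0.223) and was not called. That of let-7Tg and WT was -0.51 (SE 0.11, adjusted p = 0.0455), with adjusted p = 0.0681 under the replicate block and 0.0623 to 0.143 without any WT library or let-7Tg library 2 or 3. Naive libraries lay between 29 and 37.8 FPKM and day 5 libraries between 34.6 and 49.7, with the genotypes overlapping at both stages. Stat4 rose by 0.69 from 12 h to day 5 in let-7Tg cells (SE 0.12, adjusted p = 3.3e-05). In lin28Tg cells it rose by 0.41 from naive to 12 h (adjusted p = 0.00445), where the libraries of the stages overlapped and the difference without scaling was 0.18 (adjusted p = 0.186).

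Before the levels of the 3 inhibitors, short stretches of sequence are shown for the miRNA of the let-7 transgene and for 2 kinds of motif looked for in the 10 genes. The mature let-7g-5p (22 bases, chr9:106178846-106178867, plus strand, GRCm38) is printed with its seed, bases 2 to 8, in capitals, and is from RefSeq.
let-7g-5p: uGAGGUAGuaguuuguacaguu

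The complement of the seed, CTACCTC, was searched in 3′ UTRs, taking for each gene its longest coding transcript in GENCODE M21 (GRCm38). Of the 10 genes 1 held it, Socs1, with 1 match, and of 12758 tested genes 9.16% did. The match begins at base 262 of the 1993-base 3′ UTR, and is shown in capitals with its neighbours (chr16:10783955-10783982, minus strand).
Socs1 3′ UTR: gaattccactcCTACCTCtccatgttta

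The other 9 genes do not hold these 7 letters in the 3′ UTR read, which is 248 bases long for Stat4 and 419 for Jak3, and 1087 or longer for the rest. A match is a description of these letters only.

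The GAS motif TTCNNNGAA reads the same on both strands and was searched in windows of 300 bases at gene starts (250 before, 50 from the start on, RefSeq on GRCm38.p6), of which the 10 genes have 13. Such a motif stands in 8.3% of 32851 windows. Among the 10 genes it stands in the windows of Cish, with 2 matches whose first bases are bases 1 and 12 of the transcript, and of Socs3, with 1 match that begins at base -154 from the start. Matches are in capitals, for Cish at chr9:107296654-107296683 on the plus strand and for Socs3 at chr11:117969507-117969525 on the minus strand.
Cish: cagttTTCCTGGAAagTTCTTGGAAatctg
Socs3: cagccTTCTTAGAAgggag

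The feedback inhibitors Socs3 and Cish had the widest ranges of the 10 genes. SOCS3 binds receptors of the IL-6 family and inhibits their JAK kinases. Socs3 was at 114, 95.2 and 90.8 FPKM in WT, 101, 77.4 and 68.5 in lin28Tg and 87.1, 84.8 and 85.5 in let-7Tg naive cells. At 12 h it was at 15.7, 15.6 and 10.8 in WT, 25.5, 23.8 and 28 in lin28Tg and 9.38, 9.09 and 4.81 in let-7Tg. On day 5 it was at 44.2, 43 and 28.4 in WT, 34.8, 25.2 and 21.7 in lin28Tg and 51.4, 59.5 and 45.1 in let-7Tg. The order of the genotypes at 12 h was lin28Tg over WT over let-7Tg with no overlap. On day 5 the order of the means was turned round. Every let-7Tg library was then above every WT and lin28Tg library, while WT and lin28Tg libraries overlapped. Socs3 was 3.32-fold higher in lin28Tg than in let-7Tg cells at 12 h (log2 difference 1.73, SE 0.22, adjusted p = 0.00057) and lower on day 5 (-0.83, SE 0.20, adjusted p = 0.0159). The day 5 call was lost without lin28Tg library 2 or 3 or let-7Tg library 1 or 2 (adjusted p of 0.0504 to 0.0633). Against WT at 12 h the difference of lin28Tg was 0.86 (SE 0.22, adjusted p = 0.0431), a call lost without any 1 of the 6 libraries (adjusted p of 0.0625 to 0.144) and, narrowly, without scaling (0.0505). Against WT on day 5 it was -0.44 (adjusted p = 0.257 without and 0.0498 with the replicate block). The difference of let-7Tg and WT was -0.88 at 12 h (adjusted p = 0.0604) and 0.39 on day 5 (adjusted p = 0.475), neither of them called.

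Across stages, Socs3 differed between 12 h and naive cells by -2.56 in WT, -1.40 in lin28Tg and -3.21 in let-7Tg cells, all lower at 12 h (adjusted p of 2.2e-10, 2.6e-06 and 5.1e-12). From 12 h to day 5 it rose by 1.27 in WT and 2.59 in let-7Tg cells (adjusted p of 1.2e-05 and 2.6e-10) and differed by -0.01 in lin28Tg. Its highest group mean, WT naive, was 12.9 times its lowest, let-7Tg at 12 h.

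Cish, whose product CIS competes with STAT5 at IL-2 family receptors and is a classical STAT5 target, was nearly silent in naive cells, at 2.58, 1.89 and 1.44 FPKM in WT, 5.48, 4.94 and 4.28 in lin28Tg and 3.96, 1.51 and 1.82 in let-7Tg. At 12 h it was at 25, 20.8 and 18.9 in WT, 37.3, 36.7 and 55.4 in lin28Tg and 22.6, 21.1 and 9.13 in let-7Tg. On day 5 it was at 46.9, 54.5 and 36.4 in WT, 25.7, 74.5 and 47.1 in lin28Tg and 60.2, 91.6 and 60.5 in let-7Tg. The lin28Tg libraries were above all others in naive and 12 h cells and lay from 25.7 to 74.5 on day 5. Cish rose from naive to 12 h by 3.41 in WT (10.6-fold, SE 0.34, adjusted p = 7.9e-09), 3.22 in lin28Tg and 2.82 in let-7Tg cells. From 12 h to day 5 it rose by 1.92 in let-7Tg (adjusted p = 3.7e-05) and by 0.91 in WT (adjusted p = 0.0231). The latter was lost without WT library 2 or 3 of 12 h or library 1 or 2 of day 5 (adjusted p of 0.0529 to 0.0835). Cish differed by 0.02 in lin28Tg cells.

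Between genotypes, Cish was higher in lin28Tg than in let-7Tg cells by 1.35 at 12 h (SE 0.29, adjusted p = 0.00835) and by 0.96 in naive cells (SE 0.28, adjusted p = 0.0212). It was higher than in WT by 1.10 in naive cells (SE 0.28, adjusted p = 0.0155). At 12 h the difference of lin28Tg and WT was 0.95 (SE 0.29, adjusted p = 0.0803) and was not called. The naive calls were lost against let-7Tg without lin28Tg library 1 or let-7Tg library 2 or 3 (adjusted p of 0.0565 to 0.076), and against WT without WT library 3 (adjusted p = 0.0607). On day 5 the difference of lin28Tg and let-7Tg was -0.51 and was not called.

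Socs1, which inhibits the kinases of interferon and common gamma chain receptors, had no clear order of its 9 group means, since all 8 pairs of neighbours overlapped. At 12 h it was at 64.9, 54.6 and 71.7 FPKM in lin28Tg, 46.4, 50.1 and 33.1 in WT and 35.6, 44.3 and 19.6 in let-7Tg cells. It was higher in lin28Tg than in let-7Tg cells by 1.01 at 12 h (SE 0.25, adjusted p = 0.0142), lost without lin28Tg library 3 (adjusted p = 0.0537), and by 0.67 in naive cells (SE 0.17, adjusted p = 0.0103). Naive lin28Tg libraries were at 85.4, 61.7 and 57.4 FPKM and naive let-7Tg libraries at 45.3, 43.5 and 37.5. Of the 6 stage comparisons 1 was called, a rise of 1.25 from 12 h to day 5 in let-7Tg cells (SE 0.26, adjusted p = 0.00025). let-7Tg library 3 was the lowest of the 27 libraries for Stat3, Stat5b, Socs1 and Socs3 at 12 h.

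**Figure D3:**
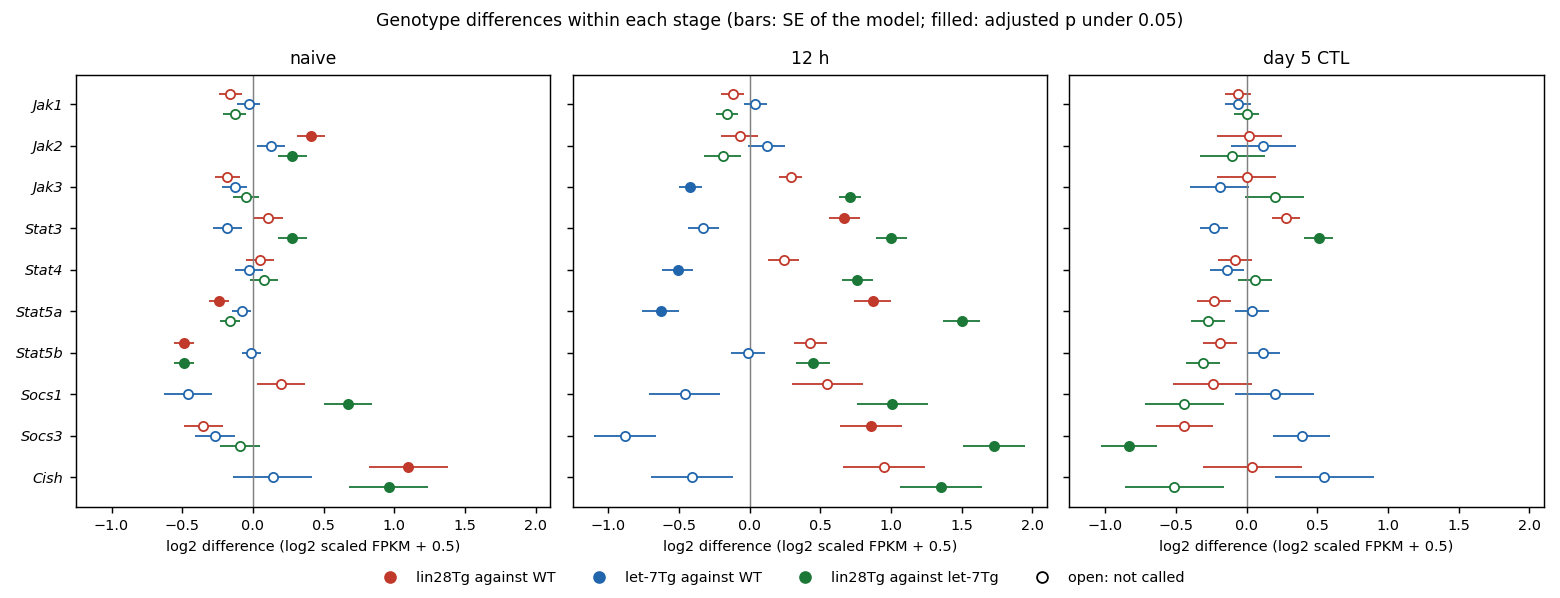
Log2 differences between genotypes (x axis, on log2 of scaled FPKM plus 0.5) for the 10 genes, in naive cells, at 12 h and in day 5 CTLs from left to right. Red is lin28Tg against WT, blue let-7Tg against WT and green lin28Tg against let-7Tg, bars are SE of the model, and filled points have an adjusted p under 0.05. At 12 h the filled green points lie between 0.45 for Stat5b and 1.73 for Socs3, and on day 5 Stat3 (0.51) and Socs3 (-0.83) are filled.

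At 12 h the means of 7 of the 10 genes lay in the order lin28Tg over WT over let-7Tg, as did those of 25.8% of all tested genes. For 4 of them (Jak3, Stat3, Stat5a and Socs3) all 9 libraries kept this order with no overlap, as in 4.69% of tested genes. Libraries of lin28Tg and let-7Tg did not overlap in 9 of the 10 genes at 12 h, against 46.3% of tested genes. In 8 of these every lin28Tg library was above every let-7Tg library, as in 22.8% of tested genes. The other was Jak1, which was lower in lin28Tg and not called (adjusted p = 0.151).

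The stage comparisons called most genes of the tables, and the share of the 10 genes was near that background in 5 of 6. For 12 h against naive cells 7 of 10 were called in WT (background 71%), 8 in lin28Tg (73.5%) and 7 in let-7Tg (69.3%). For day 5 against 12 h the numbers were 7 (67.5%), 6 (66.3%) and 9 (67.1%). Jak1, Jak2, Jak3 and Stat5a were called in all 6 stage comparisons. Each stage is a table of its own, so stage, table and any batch cannot be told apart, and day 5 cells also differ from 12 h cells in stimulus and IL-2. Scaling between libraries moved these comparisons. Without it, the median log2 difference of all genes from naive to 12 h was -0.18 in WT, -0.24 in lin28Tg and -0.18 in let-7Tg, in place of -0.03, -0.06 and -0.04.

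**Figure D4:**
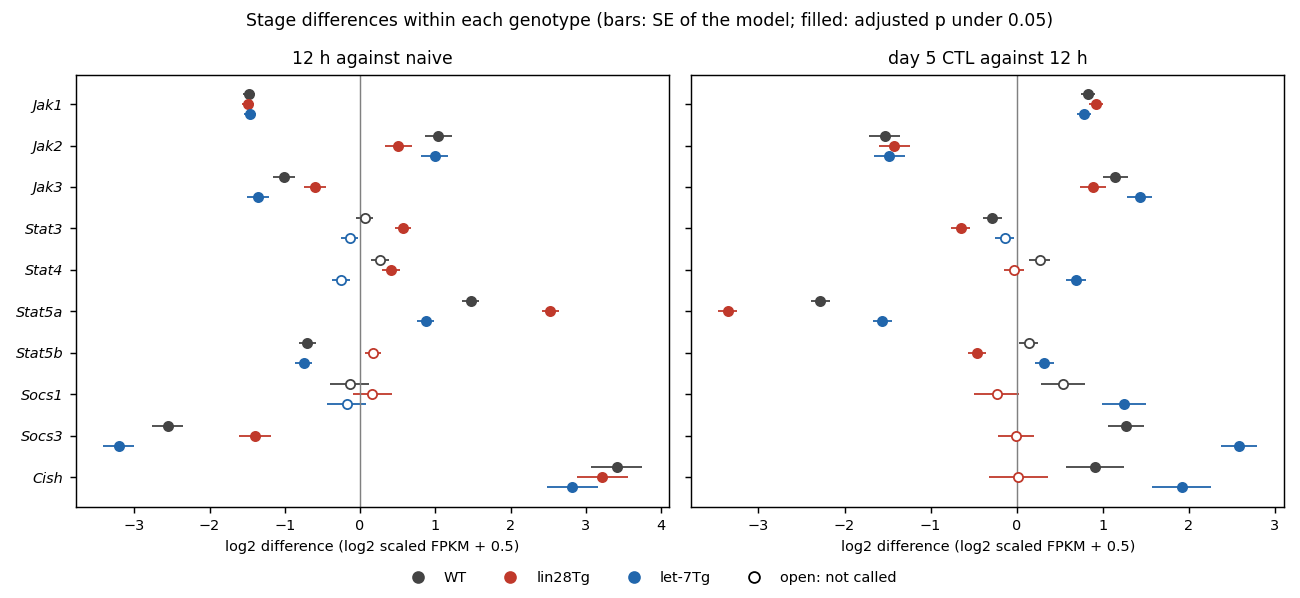
Log2 differences between stages within each genotype (x axis, on log2 of scaled FPKM plus 0.5), 12 h against naive on the left and day 5 CTL against 12 h on the right. Grey, red and blue are WT, lin28Tg and let-7Tg, bars are SE of the model, and filled points have an adjusted p under 0.05. The Stat5a points lie from 0.87 to 2.53 on the left and from -3.36 to -1.56 on the right, and the Socs3 points from -3.21 to -1.40 on the left and from -0.01 in lin28Tg to 2.59 in let-7Tg on the right.

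Whether the difference of lin28Tg and let-7Tg itself changed between stages was tested as an interaction. From naive to 12 h it moved toward higher levels in lin28Tg in 6 of the 10 genes (background 13.3%), by 1.82 for Socs3, 1.65 for Stat5a, 0.93 for Stat5b, 0.75 for Jak3, 0.71 for Stat3 and 0.67 for Stat4. From 12 h to day 5 it moved the other way in 7 (background 20.2%), by -2.59 for Socs3, -1.89 for Cish, -1.79 for Stat5a, -1.48 for Socs1, -0.79 for Stat5b, -0.72 for Stat4 and -0.51 for Stat3. Day 5 and naive cells differed in 2 (background 25.4%), Socs1 and Cish, and in 4 with the replicate block. Both of the first sets of calls rest on the same 12 h libraries. With the replicate block, Jak2 was also called for 12 h and naive cells (-0.47, adjusted p = 0.0302) and for day 5 and naive cells (-0.41, adjusted p = 0.0376), Jak3 for day 5 and 12 h (-0.53, adjusted p = 0.00529) and Socs3 for day 5 and naive cells (-0.78, adjusted p = 0.0146). Jak1 was not called in any of the 3, with or without the block.

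The let-7 transgene shares a chromosome with 4 of the 10 genes. Stat5b (chr11:100780731-100850724), Stat5a (chr11:100859351-100885169) and Stat3 (chr11:100885098-100939540, all GRCm38) are neighbours, 5.87, 5.93 and 5.97 Mb from Col1a1, the locus of the let-7 transgene, and Socs3 is 23 Mb from it on the same chromosome. Within 10 Mb of Col1a1, 19 of 235 tested genes (8.09%) were called in let-7Tg against WT at 12 h, 9 higher and 10 lower, against 377 of 12004 elsewhere (3.14%). In naive cells the shares were 1.18% and 0.929%, and on day 5 2.33% and 0.9%. Of the 3 neighbours, Stat5a was among the 19. Whether the insertion or its flanks have a part in these values was not tested.

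Other parts of the pathway are given as lists, beside the share of all tested genes called in lin28Tg against let-7Tg, which was 44.2% in naive cells, 30.8% at 12 h and 21.6% on day 5. Of 19 further family members and inhibitors, 9 (47.4%) were called in lin28Tg against let-7Tg in naive cells (2 higher, 7 lower), 8 (42.1%) at 12 h (3 higher, 5 lower) and 1 (5.26%) on day 5, with medians of -0.06, -0.10 and 0.01. In naive cells Socs2, a feedback inhibitor of growth hormone and STAT5 signaling, was at 23, 34.2 and 28.1 FPKM in lin28Tg, 9.88, 7.99 and 8.28 in WT and 9, 3.86 and 7.98 in let-7Tg. It was 4.03-fold higher in lin28Tg than in let-7Tg (log2 difference 2.01, SE 0.26, adjusted p = 0.00036). Tyk2, the fourth JAK kinase, was higher by 0.36 (adjusted p = 0.0066). At 12 h Pias4, which binds STAT proteins as an inhibitor, was higher by 0.58 (adjusted p = 0.00028), while Ptprc, the phosphatase CD45, was lower (-0.65, adjusted p = 0.00098), as was Pias2 (-0.46, adjusted p = 0.00241). Ptpn6, the phosphatase SHP-1, was lower in lin28Tg in naive cells (-0.29, adjusted p = 0.0133) and on day 5, at 100, 96.1 and 104 FPKM against 233, 252 and 277 in let-7Tg (-1.23, SE 0.13, adjusted p = 0.00049). On day 5 this list gave 5 calls with the replicate block.

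Of 20 receptor chains, 14 (70%) were called in naive cells, against 44.2% of all genes (10 higher, 4 lower in lin28Tg than in let-7Tg), 10 of 19 tested (52.6%, against 30.8%) at 12 h (7 and 3) and 12 of 19 (63.2%, against 21.6%) on day 5 (1 and 11), with medians of 0.25, 0.20 and -0.59. The difference of lin28Tg and let-7Tg moved toward lower levels in lin28Tg from 12 h to day 5 in 10 of 20 chains (50%) by the interaction test, and the other way in 0, against 20.2% of all genes called. Il6st, which encodes the shared signaling chain gp130 of IL-6 family receptors, was lower in lin28Tg at every stage, with means of 79.1 against 211 FPKM in naive cells, 19.2 against 54.7 at 12 h and 10.6 against 29.3 on day 5 (log2 differences of -1.41, -1.48 and -1.36, adjusted p of 8.7e-06, 2.1e-05 and 0.00275). Il2rb, the beta chain of the IL-2 and IL-15 receptors, was higher, at 177, 162 and 160 FPKM against 106, 94.2 and 94.7 in naive cells (0.75, adjusted p = 7.8e-05) and at 172, 182 and 197 against 104, 86.5 and 72.8 at 12 h (1.08, adjusted p = 0.00033). Il4ra, of the IL-4 receptor, was higher at 12 h (0.64, adjusted p = 0.00064), and Il23r, at a mean of 2.22 FPKM against 0.137, in naive cells (2.08, adjusted p = 7.1e-05). On day 5 the IL-10 receptor chain Il10ra (-0.90, adjusted p = 0.00146) and the interferon receptor chain Ifnar2 (-0.91, adjusted p = 0.00316) were lower.

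Of 23 genes known as targets of STAT5, STAT3 or STAT4, 14 of 22 tested (63.6%, against 44.2% of all genes) were called in naive cells (11 higher, 3 lower in lin28Tg), 13 of 22 (59.1%, against 30.8%) at 12 h (12 and 1) and 13 of 23 (56.5%, against 21.6%) on day 5 (8 and 5), with medians of 0.46, 0.57 and 0.16. At 12 h Ifng, the gene of interferon gamma, was at 1310, 1666 and 1473 FPKM in lin28Tg, 227, 294 and 169 in WT and 90.5, 127 and 56.7 in let-7Tg, 17-fold higher in lin28Tg than in let-7Tg (log2 difference 4.09, SE 0.26, adjusted p = 2.1e-05). The survival gene Bcl2l1 was at 250, 301 and 360 against 102, 84.9 and 92.5 (1.70, adjusted p = 4.6e-05), and Il18rap, a chain of the IL-18 receptor, at a mean of 10.9 against 1.85 (2.37, adjusted p = 0.00012). In naive cells Myc was higher in lin28Tg than in let-7Tg (0.57, adjusted p = 0.00078). Its means were 80.6 FPKM in lin28Tg, 79.9 in WT and 53.7 in let-7Tg. Prf1, the gene of perforin, was lower (-0.85, adjusted p = 0.0002), at means of 33.6 in lin28Tg, 53.3 in WT and 60.6 in let-7Tg. On day 5 Prf1 was higher, at 171, 307 and 254 FPKM against 13.3, 17.2 and 11.4 (4.17, SE 0.26, adjusted p = 0.00012), as were Gzmb, the gene of granzyme B (2.14, adjusted p = 0.00035), and Il18rap (1.18, adjusted p = 0.00091). The summed NK markers, which were higher in lin28Tg on day 5 with the limits given above, stand beside these values. The part of NK cells in them was not tested. Of the 23 genes, 4 are also ligands and 2 are also among the receptor chains, so the counts of these lists are not separate.

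Of 7 ligand genes, 3 of 4 tested were called in naive cells, 2 of 5 at 12 h and 4 of 4 on day 5, against 44.2%, 30.8% and 21.6% of all genes. Il2 was called at 12 h, at 68.6, 72.4 and 147 FPKM in lin28Tg, 18.6, 27.2 and 22.3 in WT and 11, 28.9 and 34.8 in let-7Tg (1.99, SE 0.41, adjusted p = 0.00636). In naive cells Il15, a growth factor for memory T cells that myeloid cells make, was at 3.87, 7 and 4.48 FPKM in lin28Tg and 1.76, 1.23 and 1.02 in let-7Tg (1.58, adjusted p = 0.00082), beside the myeloid sums given above, whose part was not tested. Osm, a cytokine of the IL-6 family, was lower there (-0.70, adjusted p = 0.00121). Ifng was higher in naive cells at a mean of 2.65 against 0.566 FPKM (1.66, adjusted p = 0.0309), lost without lin28Tg library 2 or 3 or let-7Tg library 2 or 3 (adjusted p of 0.0621 to 0.102), and on day 5 at 8.01 against 0.443 (3.05, adjusted p = 0.00295). On day 5 Lif, another cytokine of that family, was lower in lin28Tg than in let-7Tg (-2.81, SE 0.47, adjusted p = 0.00336). It was at 1.54, 4.8 and 1.07 FPKM in lin28Tg and at 22, 28.5 and 10.5 in let-7Tg. WT was at 5.49, 6.36 and 4.67, overlapping lin28Tg and below every let-7Tg library. Il10 was higher in lin28Tg, at a mean of 46.1 against 3.92 FPKM in let-7Tg (3.44, adjusted p = 0.00301).

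Genes whose 9 group means followed a member most closely are given as a description. The points share libraries and stages. The largest Pearson correlations of log2 means over the 9 groups were 0.999 for Jak1 with Arhgap9, 0.991 for Jak2 with Tnfsf14, 0.988 for Jak3 with Nub1, 0.954 for Stat3 with Pias4, 0.959 for Stat4 with Klf6 and 0.983 for Stat5a with Map4k1. They were 0.973 for Stat5b with Sele, 0.943 for Socs1 with Zfp324, 0.989 for Socs3 with Trerf1 and 0.997 for Cish with Rbbp4.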

How the data were processed

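RNA of 27 libraries (3 genotypes, 3 stages, 3 libraries each) was analysed. The authors deposited FPKM per gene, 1 table per stage, from paired-end reads. The submitters' processing notes name TopHat2 2.0.9, Bowtie2 2.0.6, HTSeq 0.6.1 and GRCm38/mm10. The annotation release is not given in the sources used here. The tables also hold the authors' own comparisons (group means of normalized read counts, fold changes, p-values from DESeq2, ranks and clusters), which were not used. No per-sample column was left out (0).

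Whole reads were recovered from the steps of FPKM for 462839 of 462839 values above 0 (100%, within 0.02 reads) in 25144 genes. A gene was tested where 3 or more libraries reached the equivalent of 10 reads in a library of median depth and its reads over the fit came to 15 or more. FPKM was scaled by trimmed means of log ratios (30% of ratios and 5% of levels trimmed) and log2(scaled FPKM + 0.5) was tested by limma (version 3.58.1, R version 4.3.3) with an intensity trend. Genotypes were compared within the 9 libraries of a stage, and stages and interactions in 1 model of all 27. P-values were adjusted by the Benjamini-Hochberg method over all tested genes, with a threshold of 0.05. Fold changes are on the scale with the pseudocount, which understates those of low genes. The procedure was tested on simulated data. limma voom on the recovered reads, pseudocounts of 0.1 and 1, no filter, no scaling, a replicate block, only the 6 libraries compared and each library left out were the alternatives.

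Same-numbered libraries deviated together on day 5 (9 correlations of 0.245 to 0.715) and for WT and let-7Tg at 12 h (0.24 to 0.549), each over 0.1, so the block is given there beside calls it changed. Transcripts were those of GENCODE M21, and miRNA and promoter sequences those of RefSeq (GRCm38.p6).

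The 10 genes and the lists were chosen with earlier results of these data known. All 10 are named. Of each list, up to 3 genes per stage are named, taken by lowest adjusted p from the calls in lin28Tg against let-7Tg. For each of the 10 the gene with the most similar group means is named. The list of naive T cell markers is not reported here.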

Additional observations from a re-analysis of the deposited data

Results flagged for a closer look

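The difference of lin28Tg and let-7Tg cells passed the interaction test between stages in 15 of 30 tests of the 10 genes. All are log2 differences from limma. From naive to 12 h the difference shifted by 0.75 for Jak3, 0.71 for Stat3, 0.67 for Stat4, 1.65 for Stat5a, 0.93 for Stat5b and 1.82 for Socs3 (adjusted p of 0.0209, 0.00402, 0.0118, 9.4e-07, 0.00037 and 0.00033). The call of Jak3 was lost without lin28Tg library 2 or let-7Tg library 3 of the naive stage or lin28Tg library 3 of 12 h (adjusted p of 0.0565 to 0.0573).

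From 12 h to day 5 it shifted by -0.51 for Stat3, -0.72 for Stat4, -1.79 for Stat5a, -0.79 for Stat5b, -1.48 for Socs1, -2.59 for Socs3 and -1.89 for Cish (adjusted p of 0.0224, 0.00416, 5.5e-08, 0.00063, 0.00639, 1.3e-06 and 0.00703). The call of Stat3 was lost without library 3 of lin28Tg or let-7Tg at 12 h, any lin28Tg library of day 5 or let-7Tg library 3 of day 5 (adjusted p of 0.0558 to 0.0779).

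Between naive cells and day 5 it shifted by -1.14 for Socs1 and -1.49 for Cish (adjusted p of 0.0275 and 0.0265). Socs1 lost its call without lin28Tg library 1 or let-7Tg library 3 of the naive stage, or lin28Tg library 1 or 3 or let-7Tg library 2 of day 5 (adjusted p of 0.0662 to 0.0862). Cish lost it without lin28Tg library 1 or let-7Tg library 2 or 3 of the naive stage, or lin28Tg library 1 or let-7Tg library 2 of day 5 (adjusted p of 0.0526 to 0.0886), and with voom (0.0904). Stage, table and any batch cannot be told apart in these tests.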

How the results depend on the processing

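None of 2490 values of the 10 genes under the alternatives run changed direction past the threshold. Of these, 2350 kept their side of the threshold, 95 lost a call and 45 gained one, and 63 of 84 calls were kept under every alternative run. Counts of the 10 genes called moved by over 1.5 times as follows. Without the filter on low reads, lin28Tg against let-7Tg in naive cells gave 2 and let-7Tg against WT at 12 h 0. With only the 6 libraries compared, lin28Tg against WT at 12 h gave 5 and let-7Tg against WT at 12 h 1. Without scaling, lin28Tg against let-7Tg on day 5 gave 4. With the replicate block, let-7Tg against WT at 12 h gave 1, lin28Tg against WT on day 5 gave 2, lin28Tg against let-7Tg on day 5 gave 4, and the interaction of day 5 and naive cells 4. Where the numbers do not pair the libraries (correlations of -0.257 to 0.475 in naive cells), the block is only an alternative model.

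With each library left out in turn, the counts ranged from 2 to 5 for naive lin28Tg against WT, 2 to 5 for naive lin28Tg against let-7Tg, 2 to 3 and 0 to 4 for lin28Tg and let-7Tg against WT at 12 h, 6 to 9 for lin28Tg against let-7Tg at 12 h, 1 to 3 on day 5, and 0 to 4 for the interaction of day 5 and naive cells. The lists, recomputed after the data were seen, moved by over 1.5 times for the other family members (naive 4 to 5, 12 h 5, day 5 2 to 5), the receptor chains (12 h 5 to 6, day 5 7) and the target genes (naive 9, day 5 8). Without scaling, the share of calls that were higher went from 54.6% to 66.4% in naive lin28Tg against WT, from 32.3% to 51% in naive let-7Tg against WT, from 62% to 72.4% in let-7Tg against WT on day 5 and from 50.2% to 35% in lin28Tg against let-7Tg on day 5. The cause of these shifts was not tested. Depth limits Cish most, with 45 reads in its lowest library.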
